A study of Caenorhabditis elegans with 2 samples.

Results

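Small nucleolar RNA (snoRNA) genes that lie outside protein-coding genes were set against ChIP-seq peaks of the tagged nuclear hormone receptor NHR-179 in Caenorhabditis elegans. A member was any nuclear gene of biotype snoRNA in the WBcel235 annotation (the ce11 build) that did not lie wholly within the span of a protein-coding gene. Of 346 nuclear snoRNA genes, 130 met this rule and 216 lay inside a protein-coding gene. The members were spread over all 6 nuclear chromosomes, with 30 on I, 28 on II, 10 on III, 23 on IV, 16 on V and 23 on X, and 62 were on the plus strand and 68 on the minus strand. A further 6 of the 130 overlapped a coding gene in part.

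The animals were hermaphrodite young adults of strain OP465, of genotype unc-119(tm4063) III; wgIs465, in which the transgene supplies NHR-179 carrying GFP and FLAG at its C-terminus. Whole worms were taken 64 hours after synchronization as L1 larvae starved after bleaching, and their chromatin was sonicated. The sample descriptions name an anti-GFP antibody, whereas the antibody field of both samples reads nhr-179. There were 2 biological replicates, numbered 2 and 3, in 1 group, so no condition could be compared. The peaks come from whole animals and do not show in which cells a site was bound. The labels do not give the promoter of the transgene or the number of animals per sample.

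In the cell nucleolus, C/D snoRNAs guide methylation of ribose and H/ACA snoRNAs guide the change of uridine to pseudouridine, mainly in ribosomal RNA. In animals most snoRNAs are cut from introns of host genes, whereas snoRNA genes with a promoter of their own can be read by RNA polymerase II or by RNA polymerase III. Polymerase III genes of the tRNA type carry an A box and a B box, which bind the factor TFIIIC, and the polymerase stops at a run of T on the coding strand.

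Peaks were deposited per replicate and for the replicates pooled, and an optimal list holds peaks that passed a threshold of the irreproducible discovery rate. The optimal list held 233 nuclear peaks, the pooled list 9583, the replicate 2 list 12843 and the replicate 3 list 13722. Each peak has a summit and a signal, a score of the authors whose scale is not stated, so the signal was used here only to describe and rank peaks within a list. Ranks below count nuclear peaks only, with 1 as the highest signal. A member with several summits within 200 bp in a list is given by the nearest of them unless stated. The files hold no read counts, so depth is unknown. Shares of genes or peaks are given with their 95% interval by the exact Clopper-Pearson method, which covers counting error alone.

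The start regions of 10 members are shown first because the peak summits of most of them fell in these bases. They are the 10 members on chromosomes II to V and X with the highest signal at the nearest optimal summit, read on the strand of the snoRNA from 90 bases before the annotated start to 20 bases after it, from the RefSeq sequence of WBcel235. Capitals mark the letters of an A box (left) and a B box (right), each with at most 1 mismatch.
T06C12.16, chrV:15873907-15874016, minus strand: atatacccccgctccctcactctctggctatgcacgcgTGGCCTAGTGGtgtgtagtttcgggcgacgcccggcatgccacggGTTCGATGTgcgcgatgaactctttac
W03C9.9, chrII:11960808-11960917, plus strand: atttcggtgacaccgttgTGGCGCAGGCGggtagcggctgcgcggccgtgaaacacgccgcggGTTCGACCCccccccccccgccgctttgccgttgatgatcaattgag
Y75B12B.12, chrV:15191074-15191183, minus strand: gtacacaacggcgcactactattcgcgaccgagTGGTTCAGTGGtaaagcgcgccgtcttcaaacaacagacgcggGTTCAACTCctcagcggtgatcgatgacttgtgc
C53B7.8, chrX:6867848-6867957, plus strand: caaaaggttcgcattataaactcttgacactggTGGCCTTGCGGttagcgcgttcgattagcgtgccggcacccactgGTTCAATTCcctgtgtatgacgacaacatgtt
Y53F4B.48, chrII:15166009-15166118, minus strand: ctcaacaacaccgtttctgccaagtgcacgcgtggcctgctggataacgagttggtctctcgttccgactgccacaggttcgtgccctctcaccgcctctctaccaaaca
C41C4.11, chrII:8107251-8107360, minus strand: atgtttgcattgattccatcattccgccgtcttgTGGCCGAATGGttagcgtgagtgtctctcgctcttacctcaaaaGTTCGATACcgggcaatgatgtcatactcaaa
H09I01.2, chrIV:8253004-8253113, plus strand: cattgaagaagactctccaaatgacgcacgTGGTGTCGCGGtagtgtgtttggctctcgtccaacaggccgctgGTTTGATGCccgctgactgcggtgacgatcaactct
F30H5.4, chrIII:502714-502823, plus strand: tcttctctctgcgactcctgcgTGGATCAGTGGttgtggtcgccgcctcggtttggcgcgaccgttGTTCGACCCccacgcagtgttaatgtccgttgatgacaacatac
ZK643.9, chrIII:8937677-8937786, plus strand: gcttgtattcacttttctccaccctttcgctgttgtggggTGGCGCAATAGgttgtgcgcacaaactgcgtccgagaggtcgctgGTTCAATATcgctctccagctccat
K09E9.5, chrX:15619401-15619510, plus strand: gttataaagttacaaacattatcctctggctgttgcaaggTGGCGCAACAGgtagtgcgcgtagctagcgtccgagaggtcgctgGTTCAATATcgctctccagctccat
Y53F4B.48 has no capitals because no pair of boxes there came within 1 mismatch of each box.

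The genes themselves were checked for the letters of snoRNA boxes. T06C12.16 is shown for the C/D letters and ZK643.9 for the ACA near the 3′ end, with those letters in capitals.
T06C12.16 gene, chrV:15873855-15873926, minus strand: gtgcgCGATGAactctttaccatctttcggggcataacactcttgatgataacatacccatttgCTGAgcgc
ZK643.9 gene, chrIII:8937767-8937897, plus strand: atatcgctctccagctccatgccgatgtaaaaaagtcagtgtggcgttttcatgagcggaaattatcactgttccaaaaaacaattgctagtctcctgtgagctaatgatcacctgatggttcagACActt
C/D letters were taken as TGATGA with at most 1 mismatch in the first 20 bases together with CTGA in the last 12, and ACA letters as ACA in the last 8 bases. By these loose rules 15 of the 130 members had C/D letters, 22 had ACA letters alone and 93 had neither, so the letters do not account for most of the annotated genes.

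An optimal summit lay within 200 bp of 18 of the 130 members, a share of 13.8% (8.42 to 21.0%). For snoRNA genes inside protein-coding genes the share was 10.6% (6.87 to 15.5%, 23 of 216), and for all 46890 nuclear genes it was 0.928%. The intervals of the 2 snoRNA classes overlap. Among other small RNA classes, 19.0% of 612 tRNA genes, 6.98% of 129 snRNA genes and 1.15% of 261 miRNA genes had such a summit. None of 20 rRNA genes had one, which allows a share of up to 16.8%, and 0.711% of 19973 protein-coding genes did. The bar plot of these shares places snoRNA genes of either kind between tRNA genes (15.9 to 22.3%) and snRNA genes (3.24 to 12.8%). The snRNA interval overlaps those of both snoRNA classes, and the tRNA interval overlaps that of the members.

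**Figure D1:**
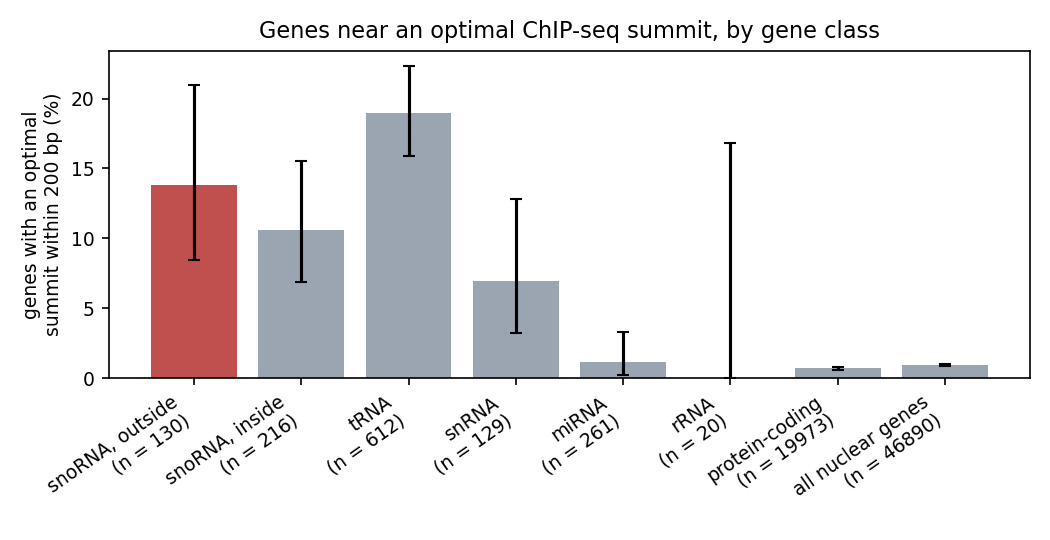
Share of genes (%) with an optimal summit within 200 bp, by gene class. Bars are shares, lines are exact 95% intervals over genes and n is the number of genes; snoRNA genes outside protein-coding genes stand at 13.8% and all nuclear genes at 0.928%.

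In the longer lists the members stood less far from the background. A pooled summit lay near 45 members (34.6%, 26.5 to 43.5%), against 24.1% of snoRNA genes inside coding genes and 16.2% of all nuclear genes. The replicate 2 list gave 47 members (36.2%), against 26.9% of inside snoRNA genes and 20% of all genes. The replicate 3 list gave 43 members (33.1%), against 29.6% of inside snoRNA genes and 21.2% of all genes. These lists hold background regions as well as peaks. Long genes meet them more often within a fixed distance, and 27.6% of protein-coding genes had a pooled summit. Summits of both replicates lay near 31 members (23.8%, 16.8 to 32.1%), against 19.0% of inside snoRNA genes and 10.9% of all genes, and 71 members had a summit in neither replicate list.

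A window of 100 bp before the start has the same length for every gene. It held an optimal summit at 15 members (11.5%, 6.60 to 18.3%), against 6.48% of inside snoRNA genes (3.59 to 10.6%) and 0.175% of all nuclear genes. Only 2 of 19973 protein-coding genes (0.0100%) had an optimal summit in that window, and 5.07% of tRNA genes did, whose A and B boxes lie within the gene. In the pooled list the window held a summit at 26 members (20%), against 12.5% of inside snoRNA genes and 1.57% of all genes. The replicates taken alone gave 14.6% of members in replicate 2, where all genes gave 2.02%, and 20.8% in replicate 3, where all genes gave 1.97%.

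Counted as peaks, 19 of the 233 nuclear optimal peaks (8.15%, 4.98 to 12.4%) had a summit within 200 bp of a member, and their median rank was 61. The 18 members with an optimal summit were found on all 6 nuclear chromosomes, with 4 on I, 5 on II, 2 on III, 3 on IV, 2 on V and 2 on X. The optimal list as a whole was weighted to X, which held 106 of its peaks against 20 to 31 on each of the other chromosomes. No member on X ranked above 32. The 18 were divided 9 and 9 between the strands.

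By nearest summit, the 7 members with the highest signal ranked within the upper 62 nuclear peaks of both replicate lists. W01C9.6, described last, has a higher peak farther from the gene that would place it among them. ZK265.10 on chromosome I had an optimal signal of 173 at rank 9, with ranks 7 in replicate 2 and 16 in replicate 3. T06C12.16, a gene with C/D letters 85 bp from the chemoreceptor gene str-56, had a signal of 169.7 at rank 12, with ranks 26 in replicate 2 and 7 in replicate 3. Y23H5B.10, whose nearest coding gene is 7909 bp away, had 160.0 at rank 13, with ranks 16 and 18 in replicates 2 and 3. These 3 members were among the highest nuclear peaks of each replicate.

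W03C9.9, with C/D letters, had a signal of 143 at rank 23, with ranks 23 in replicate 2 and 41 in replicate 3. Y75B12B.12, which also has C/D letters and lies 50 bp from the cyclophilin gene cyn-3, had 138 at rank 28, with ranks 14 in replicate 2 and 59 in replicate 3. C53B7.8 on X had 135 at rank 32 and nearly equal ranks of 45 and 47 in replicates 2 and 3. Both replicates therefore placed these C/D genes in the upper 59 nuclear peaks. Y53F4B.48, a gene with ACA letters, had 119 at rank 48, with ranks 62 in replicate 2 and 56 in replicate 3.

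The replicates were further apart for some of the next members. T19B4.8 had an optimal signal of 115 at rank 56. Its summit ranked 20 in replicate 3, whereas the nearest summit of replicate 2 ranked 6384. Replicate 2 also had a summit 91 bp before the start of T19B4.8 at rank 180, so the gap came in part from taking the nearest summit. C41C4.11 had 112 at rank 61, with ranks 28 in replicate 2 and 273 in replicate 3, and H09I01.2 had 106 at rank 74, with ranks 173 and 49. F30H5.4, with C/D letters and next to the myosin chaperone gene unc-45, had 102 at rank 88, with ranks 82 in replicate 2 and 168 in replicate 3.

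The remaining 7 members ranked from 132 to 217 in the optimal list. T27A3.9, which overlaps the coding gene T27A3.8 on the other strand, had 90.4 at rank 132, with ranks 159 in replicate 2 and 247 in replicate 3. ZK643.9 and K09E9.5, with ACA letters, had 87.6 at rank 145 and 86.1 at rank 154. These genes are near copies, with 124 of 131 bases identical (94.7%). Of the words of 32 bases in each gene and the 120 bases before it, 17.3% occurred elsewhere in the genome. Where reads from such words were placed was not tested. In replicate 2 they ranked 280 and 1018, and in replicate 3 they ranked 164 and 74.

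Y53F4B.47 had 85.9 at rank 156 and was the member that reached the highest 256 peaks of neither replicate by its nearest summit, with ranks 546 in replicate 2 and 1296 in replicate 3. Another summit of replicate 3, 156 bp after its start, ranked 97. F32E10.10 had 83.5 at rank 173, with ranks 1530 in replicate 2 and 80 in replicate 3. The ranks of F12F6.11 were 189 in the optimal list, 446 in replicate 2 and 184 in replicate 3. W01C9.6, an ACA gene that overlaps the globin gene glb-27, had 77.1 at rank 217 for its nearest summit and 128 at rank 37 for a higher one, 97 bp before its start. It is the member with a pair of optimal peaks, which makes 19 peaks for 18 genes.

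All 18 members had a summit within 200 bp in both replicate lists. By nearest summit, 12 were among the highest 256 peaks of replicate 2, 15 among those of replicate 3 and 10 among those of both. By any summit within 200 bp, a count added after the data were seen, these were 13, 16 and 11. The median distance between the replicates' summits was 27 bp (2 to 191 bp), and 12 of the 18 pairs lay within 50 bp. Spearman's rho between the ranks was 0.437 over the 18 members and 0.577 over the 31 members with summits in both replicates, as a description of genes that share their libraries. The optimal list equals the 256 highest pooled peaks, so presence near these ranks in each replicate is in part fixed by the choice of the 18.

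**Figure D2:**
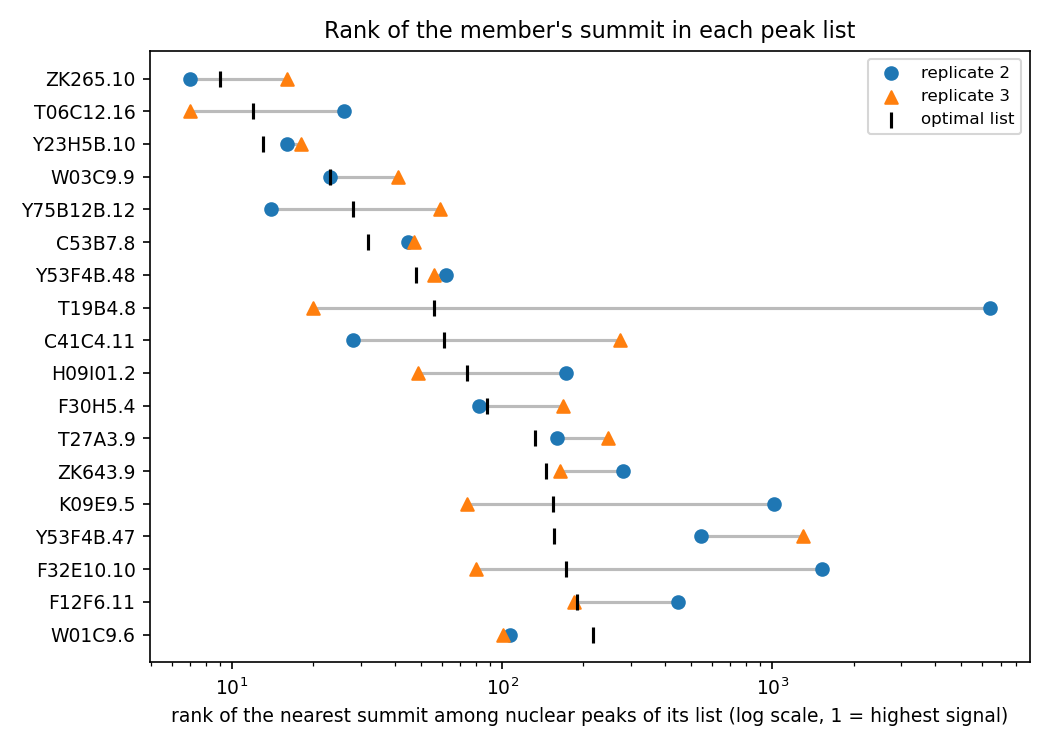
Rank of the nearest summit among nuclear peaks of its list (log scale, 1 is the highest signal) for the 18 members, in replicate 2 (circles), replicate 3 (triangles) and the optimal list (ticks). Placed by nearest summit, the upper 7 members rank within 62 in both replicates, and T19B4.8 spans 20 to 6384.

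The 200 bp limit did not divide close values of distance. Inside it the greatest distances from gene to optimal summit were 107 bp at Y53F4B.47 and 63 bp at Y53F4B.48, and outside it the nearest were 711 bp at T27A8.8 and 1089 bp at M163.14. By signal, the highest members without an optimal summit were F25H2.15 with a pooled signal of 73.9 at rank 241, K02C4.8 with 67.6 at rank 320 and C16D9.10 with 65.5 at rank 352. The lowest nuclear signal in the optimal list was 74.7, so F25H2.15 missed it narrowly.

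Summits lay mostly just before the snoRNA start. Over the 18 members the nearest optimal summit stood at a median of -22 bp from the start (negative is upstream, on the strand of the gene), with a range of -63 to 186 bp. The median was -38.5 bp in the highest peaks of replicate 2 alone and -53.5 bp in the upper 50% of the optimal list. At 14 members it was at or before the start, at 3 within the gene and at 1 beyond it, and the 14 all lay within 100 bp before the start (77.8%, 52.4 to 93.6%). At inside snoRNA genes the median was -36 bp, with 14 of 23 summits in those 100 bp (60.9%, 38.5 to 80.3%). Both classes of snoRNA gene thus had their optimal summits near the start, and the intervals overlap.

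At several members the replicate summits stood close together. At T06C12.16 the summit was at -45 bp in the optimal list, -35 bp in replicate 2 and -38 bp in replicate 3. At ZK265.10 it was at -61, -65 and -69 bp in the same order, and at Y23H5B.10 at -13, -20 and -15 bp. The spread between the replicates was smaller than the length of these genes. At T27A3.9 the 3 positions were -21, -21 and -19 bp, and at F32E10.10 they were -23, -35 and -22 bp.

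Other members showed a wider spread. At Y75B12B.12 the optimal summit was at the first base of the gene, at 0 bp, with -9 bp in replicate 2 and 47 bp in replicate 3. At ZK643.9 the optimal summit was at 53 bp, inside the gene, whereas replicates 2 and 3 had theirs at -34 and -9 bp. At its near copy K09E9.5 the optimal summit was at 47 bp, with -14 bp in replicate 2 and 58 bp in replicate 3. In all, the nearest summits of the optimal and replicate lists fell on different sides of the start at 7 of the 18 members. The others were T19B4.8, Y53F4B.47, F12F6.11 and W01C9.6, and at W01C9.6 the replicate summits were farthest apart, at 102 bp in replicate 2 and -89 bp in replicate 3. Over all 18, the median was -32.5 bp in replicate 2 and -24 bp in replicate 3.

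Over the 27 members with a pooled summit and no optimal one, the median position was 25 bp, with 10 in the 100 bp before the start (37.0%, 19.4 to 57.6%), and the median rank was 1404. This interval overlaps that of the 18, and the difference was not tested. In the replicate lists taken whole, 17 of 47 nearest summits (36.2%) lay in that window in replicate 2 and 27 of 43 (62.8%) in replicate 3. In bins of 50 bp around the starts of all 130 members, the bins from -100 to -51 bp and from -50 to -1 bp each held 7 optimal summits (5.38 per 100 genes). No other bin held more than 2.

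**Figure D3:**
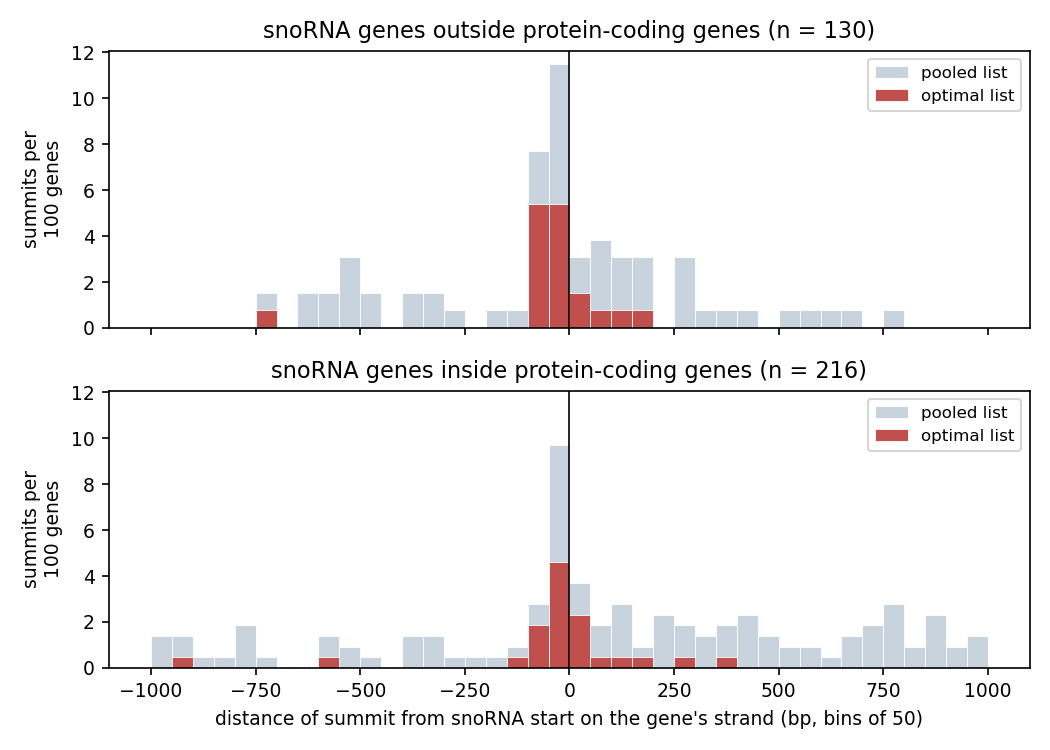
Summits per 100 genes in bins of 50 bp around the snoRNA start, for the pooled list (pale) and the optimal list (red), at snoRNA genes outside (above) and inside (below) protein-coding genes. Outside coding genes, the 2 bins before the start hold 5.38 optimal summits per 100 genes each.

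The bases before the start were searched for promoter boxes from 250 bases before it to 50 after. The A box is a pattern of 11 letters named here only, and the B box was searched as GTTCGANNC, GTTCAANNC, GATCGANNC and GATCAANNC. On the strand of the gene, an exact A box was found at 9 of the 18 members with an optimal summit (50%, 26.0 to 74.0%), against 15 of 112 without one (13.4%) and 9.36% of all nuclear gene starts. An exact B box was found at 11 of the 18 (61.1%, 35.7 to 82.7%), against 13 of 112 (11.6%) and 5.30% of all starts. On either strand the A box counts were 10 of 18, 25 of 112 and 18.8% of all starts, and the B box counts were 11 of 18, 19 of 112 and 10.3%. Inside snoRNA genes with an optimal summit had an exact A box on their strand at 65.2% and a B box at 43.5%. Those without a summit had them at 15.0% and 13.5%.

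The next search was chosen after the sequences of these members and their summits had been seen, so its counts describe the members and do not test them. It asked for an A box followed by a B box on the strand of the gene, with 20 to 60 bases between them, at most 1 mismatch in each, between 150 bases before the start and 5 bases after it. Such a pair was found at 15 of the 18 members with an optimal summit (83.3%, 58.6 to 96.4%). It was found at 7 of 27 members with only a pooled summit (25.9%), at 6 of 85 with no pooled summit (7.06%) and at 5.87% of all nuclear gene starts. On the opposite strand the same search found a pair at 1 of the 18 members and at 7.62% of all starts. With no mismatch allowed, pairs remained at 5 of 18 members (27.8%), against 4 of 112 (3.57%) and 0.124% of all starts. Those 5 were W03C9.9, Y75B12B.12, T19B4.8, C41C4.11 and F32E10.10.

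The end of the search window was itself changed after a first look. With a window to 20 bases after the start the pair was also found at 15 of the 18, at 15 of 112 members without an optimal summit (13.4%) and at 6.85% of all starts. The pair chosen at H09I01.2 then used a B box farther downstream, and the distance from the first base of the A box to that of the B box ran from 43 to 70 bases, with 14 of 15 pairs at 43 to 45. With the window to 5 bases all 15 were at 43 to 45 bases, a uniformity that this change helped to make.

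With that window, A boxes began 72 to 50 bases before the start (median -56) and B boxes 27 to 5 bases before it (median -12). The bases are those in capitals in the start regions above, where W03C9.9 has the pair farthest from its start. At T06C12.16, ZK643.9 and K09E9.5 the B box runs into the gene. It also reaches the first base of Y23H5B.10, whose start region is not shown. The summit lay from the first base of the A box to the last of the B box at 11 of the 15 members. It lay beyond the B box at Y75B12B.12, ZK643.9, K09E9.5 and W01C9.6. The members without a pair were ZK265.10, Y53F4B.48 and Y53F4B.47, of which ZK265.10 had the highest signal of all 18.

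**Figure D4:**
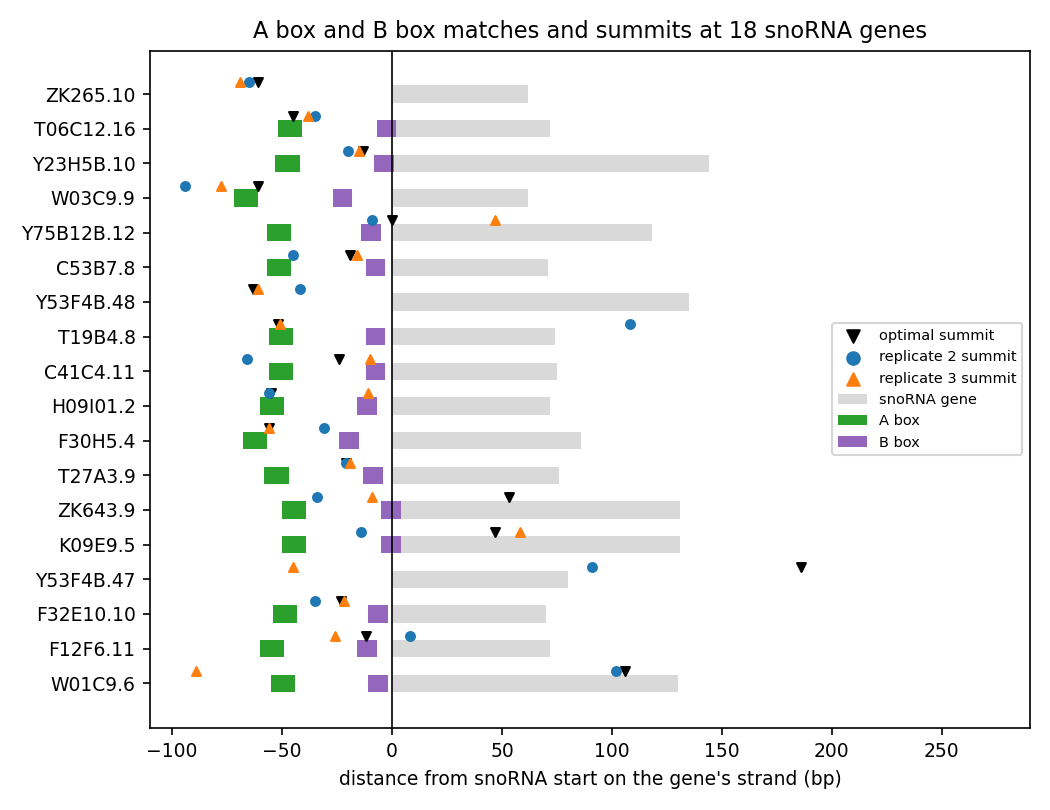
Position (bp from the snoRNA start, on the strand of the gene) of A box and B box matches with at most 1 mismatch, of the snoRNA gene and of the nearest summit in the optimal and replicate lists, for the 18 members in order of signal. At 11 of the 15 members with both boxes, the optimal summit lies between the first base of the A box and the last of the B box.

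Read the other way, 28 of the 130 members had a pair, and 15 of them had an optimal summit (53.6%, 33.9 to 72.5%), against 3 of 102 members with no pair (2.94%, 0.611 to 8.36%). In the pooled list the counts were 22 of 28 (78.6%) and 23 of 102 (22.5%). In replicate 2 they were 18 of 28 (64.3%) and 29 of 102 (28.4%), and in replicate 3 they were 23 of 28 (82.1%) and 20 of 102 (19.6%). The order of the groups was the same in each replicate, which was in part fixed in advance. All 18 members with an optimal summit had a summit in both replicate lists, and the pair was defined after these members were seen. With the 18 left out, members with a pair had the higher share in replicate 3 but not in replicate 2. At snoRNA genes inside coding genes, an optimal summit lay near 14 of 50 genes with a pair (28%) and 9 of 166 without one (5.42%).

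**Figure D5:**
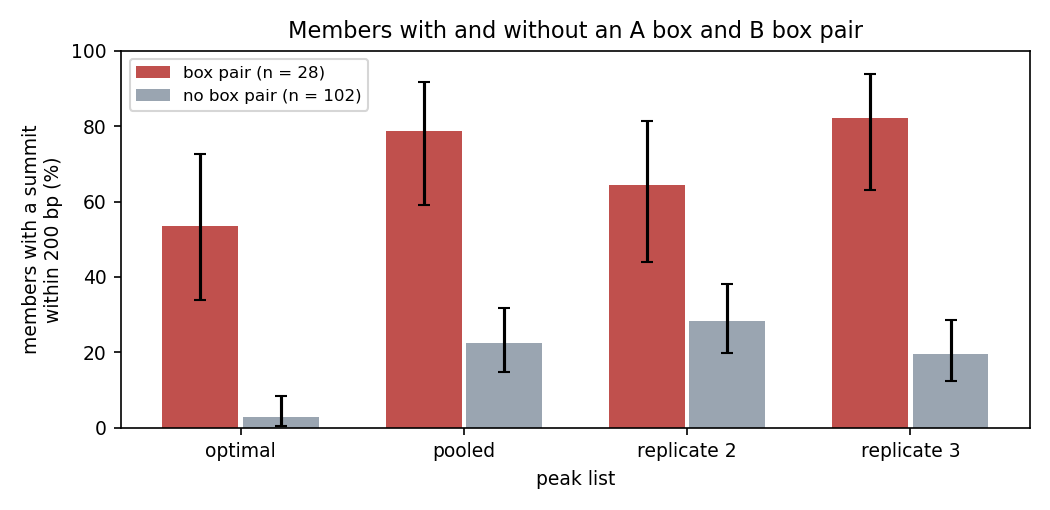
Share of members (%) with a summit within 200 bp in each list, for members with an A box and B box pair (n = 28) and without one (n = 102). Lines are exact 95% intervals over genes; with a pair the share is 53.6% in the optimal list and 64.3% and 82.1% in replicates 2 and 3, without one it is 2.94%, 28.4% and 19.6%.

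Of the 7 members with a pair and only a pooled summit, 6 had the summit in the 100 bp before the start, at ranks from 320 (K02C4.8, at -62 bp) downward. The exception was ZC395.12, with a summit 82 bp after its start at rank 6264. Apart from ZC395.12, these summits stood in the same window as those of most of the 18. Their lower signals follow from the optimal list being the 256 highest pooled peaks.

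TATAAA, the core of many polymerase II and some polymerase III promoters, was found on either strand at 8 of the 18 members (44.4%), at 32 of 112 others (28.6%) and at 37.4% of all starts. The word GAACCCG was found on the strand of the gene at 0.836% of all starts. Its share was 3.24% of inside snoRNA genes (1.31 to 6.56%, 7 of 216) and 4.74% of tRNA genes (3.20 to 6.73%). Among the members it was found at 10 of 130 (7.69%, 3.75 to 13.7%), an interval that overlaps those of both these classes. In 9 of these 10 it began 78 to 58 bases before the start. Among the 18 members with an optimal summit, Y53F4B.47 was the only one with the word on its strand. On either strand the word was found at 6 of the 18 members and 1.45% of all starts, but its reverse complement CGGGTTC shares letters with the B box, and 4 of these 6 have a B box on the strand of the gene.

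Where a member with GAACCCG on its strand had pooled summits, the highest of them stood after the start. The nearest one stood before it at Y53F4B.47, at -14 bp and rank 260. The highest summit was after the start at 5 members, at 71 bp (F59C6.15), 102 bp (F47G4.9), 104 bp (Y67A10A.14), 186 bp (Y53F4B.47) and 291 bp (F25H2.15), and the other 5 had no pooled summit. This was noticed after the data were seen, and with 5 genes it is a description only.

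The 18 members differed from the other 112 in further features that the rule did not use. One was the annotation itself, as most of the 112 had gene identifiers numbered above those of all 18. Contrasts of the 18 with the 112, here and in the other paragraphs, were not repeated among the low-numbered identifiers alone. They therefore cannot be told apart from this division of the annotation. C/D letters were found in 9 of 18 (50%, 26.0 to 74.0%), against 6 of 112 (5.36%, 1.99 to 11.3%). ACA letters alone were found in 4 of 18 (22.2%) and 18 of 112 (16.1%), with overlapping intervals. Thus 9 of the 15 members with C/D letters had an optimal summit. The 18 were also shorter, with a median length of 75.5 bp (62 to 144 bp) against 154 bp (64 to 344 bp). These contrasts were not particular to the members. Among inside snoRNA genes, C/D letters were found in 6 of 23 with an optimal summit (26.1%) and 19 of 193 without one (9.84%). Their median lengths were 80 and 129 bp.

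A run of TTTT, the stop signal of polymerase III, lay within the 20 bases after the gene at 15 of 18 members (83.3%, 58.6 to 96.4%), against 35 of 112 (31.2%, 22.8 to 40.7%). Those without it were F30H5.4, Y53F4B.47 and F32E10.10. At snoRNA genes inside coding genes the run followed 18 of 23 with an optimal summit (78.3%) and 77 of 193 without one (39.9%). The 100 bases before the start had a median GC content of 53% at the 18 (45 to 69%), against 46% (23 to 67%) at the other 112. Members with only a pooled summit had a median of 54%. At inside snoRNA genes the median was 56% with an optimal summit and 42% without one. Base composition moved with these counts, and its part in the summits and in the box matches was not tested.

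Neighbouring genes were then compared. No other small RNA gene lay within 1000 bp of any of the 18 members (0 of 18, which allows a share of up to 18.5%), against 8 of 112 others (7.14%). A protein-coding start lay within 1000 bp of 7 of 18 members (38.9%) and of 45 of 112 others (40.2%). The nearest coding gene was a median of 172 bp away, against 663 bp. An annotated gene of biotype ncRNA, lincRNA or antisense RNA overlapped Y23H5B.10, Y53F4B.48, T19B4.8, C41C4.11 and H09I01.2. These made 5 of 18 (27.8%, 9.69 to 53.5%), against 8 of 112 (7.14%, 3.13 to 13.6%). Among inside snoRNA genes, such an overlap was found at 6 of 23 with an optimal summit (26.1%) and 19 of 193 without one (9.84%).

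The protein partners of snoRNAs were not near optimal peaks. Of 8 genes for core snoRNA proteins, among them fib-1 (fibrillarin, the methyltransferase of C/D particles), nol-56 and nol-58 of the same particles, and the pseudouridine synthase gene K01G5.5, none had an optimal summit within 200 bp of the gene or 1000 bp of its start. Pooled summits lay within 200 bp of 3 of the 8, nol-56, nol-58 and Y66H1A.4. In that list the share was 27.6% of protein-coding genes and 16.2% of all nuclear genes, so 3 of 8 does not set them apart. With 8 genes and a background of 0.928% for the optimal list, a count of 0 does not set them apart from other genes.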

How the data were processed

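Peak lists from 2 ChIP-seq replicates on ce11 were used. By the descriptions deposited with the files, calling used a control alignment, the replicate and pooled lists include background regions, and the optimal list passed an irreproducible discovery rate threshold. The aligner, peak caller and threshold are not given in the sources used here. The signal is a score of the authors, and the deposited −log10 of a q value ran from 1.66 to 2.48 in the optimal list. The 4 lists on ce10 and the control were not used here. Depth is unknown.

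Genes came from the Ensembl release 115 annotation of WBcel235, and sequences from the RefSeq assembly of the same build. A summit was matched to a gene when it lay within 200 bp of the gene's span, and the nearest was taken. Shares have exact Clopper-Pearson intervals (SciPy 1.17.1), and no test was run because there is 1 group. The summit matching was tested on simulated summits, whereas the motif searches were not. The text names every member with an optimal summit and the 3 members with the highest pooled signal without one. Other genes named were singled out after their values were seen.

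The members and lists were chosen with earlier results of these data known. The exact searches for the A box, B box, TATAAA and GAACCCG on both strands were listed in the plan, itself written with those results known. The counts by strand, the pairing of boxes, the mismatches, the pair window, the letter windows for C/D, ACA and TTTT, and the 100 bp window were chosen after the data were seen.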

Additional observations from a re-analysis of the deposited data

How the results depend on the processing

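Of 53 values recomputed under other settings, 48 stayed within 1.5 times the reported count or within the spread of the median between replicates. Some could not change, such as counts of genes with a summit when the highest summit replaced the nearest. The count of 12 members in the upper 50% of the optimal list stands at the limit of 1.5 times. The 18 members with an optimal summit became 17 to 19 at distances of 100 to 1000 bp, 12 in the upper 50% of the optimal list and 26 in a pooled list of double its length. Leaving out a replicate gave 14 to 20 members. The 31 members with summits in both replicates became 11 when each list was limited to its highest 256 peaks. The median summit position of -22 bp became -53.5 bp in the upper 50% of the optimal list, and -38.5 to -24 bp when a replicate was left out. Without replicate 3 the value was -38.5 bp, against a standard deviation of 6.01 bp between replicates. The causes were not tested. Taking the highest summit in place of the nearest, an alternative added after the data were seen, gave -23.5 bp. Box pairs at 28 members became 30 or 31 with search windows to 20 or 50 bases after the start, and 9 without mismatches. With those windows the pairs among the 18 members stayed at 15, and without mismatches they fell to 5. These settings were also added after the data were seen. No paired analysis was possible because both replicates belong to 1 group. With no counts, the depth behind a missing summit cannot be given, so members without one are not shown to be unbound.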
